A study of Mus musculus with 23 samples.

Results

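The genes described here encode the urea cycle and the main routes of amino acid breakdown in liver, together with the carriers that bring amino acids into the hepatocyte. They were taken as a list of 37 genes by function. Of these, 35 had a probe set that stands for a single gene, and all 35 were among the 13826 genes tested of 18193 with such a probe set. Sds and Sdsl, the serine dehydratase and its homologue, were not analysed here.

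The samples were total liver RNA of male C3H mice on Affymetrix 3' expression arrays, in 4 groups that cross genotype with diet. Wild-type mice received phenobarbital-free diet (5 arrays) or 0.05% phenobarbital in the diet (4 arrays), and knockout mice received the same diets (7 arrays each), for 12 weeks. In the knockout mice, Cre recombinase driven by the albumin promoter, active in hepatocytes, removed Ctnnb1 sequence flanked by loxP sites (exons 3 to 6). Ctnnb1 encodes β-catenin, the transcriptional effector of Wnt signalling. The labels give water as the vehicle of the controls, and the age of the mice and the Cre and loxP status of the wild types are not given in the sources used here. The labels do not say that each array came from a separate animal, so the p-values here reflect only how far these samples differ, which may be technical variation.

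Ammonia released from amino acids is toxic and is turned into urea in periportal hepatocytes, those nearest the incoming portal blood. Cps1 makes carbamoyl phosphate, its activator is made by Nags, and Otc, Ass1, Asl and Arg1 complete the cycle. Ammonia that escapes is fixed as glutamine by Glul in the hepatocytes around the central vein, where Wnt and β-catenin signalling is strongest and sets the perivenous gene programme. Phenobarbital activates the nuclear receptor CAR in hepatocytes and induces drug-metabolising enzymes, above all Cyp2b10.

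Levels below are log2 RMA signals, and a change is the difference of 2 group means on that scale with its standard error (SE). A gene was called changed, and is said to have risen or fallen, where limma's moderated test, adjusted by Benjamini-Hochberg across every tested gene, gave an adjusted p below 0.05. A fold below 1 is the share of the comparison group's level. Levels of different genes are not compared, since probe sets differ in response.

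The series' own checks gave the following. Cyp2b10 rose by 6.96 (SE 0.37) with phenobarbital in wild-type and by 3.01 (SE 0.295) in knockout liver. On control diet, knockout against wild-type liver had a Glul change of -3.51 (adjusted p 6.5e-09) and a change of -5.05 (adjusted p 1.55e-09) in the perivenous Cyp2e1. On phenobarbital these were -3.10 and -6.45. Cyp2b10 was also higher in the knockout on control diet, by 4.06 (adjusted p 1.14e-08), and had 0.11 (0.842) on phenobarbital. The Ctnnb1 probe set did not separate the genotypes, at 12.203 ± 0.0242 (SD, n = 5) in wild type and 12.251 ± 0.115 (SD, n = 7) in knockout on control diet (log2 change 0.05, limma adjusted p 0.538). Whether its probes lie outside the deleted exons is not stated, so it checks nothing about the deletion. The mean of the hepatocyte markers lay between 14.38 and 14.48 in every array. The mean of 10 macrophage markers ranged from 6.88 to 7.59 in wild-type control arrays and from 6.8 to 7.06 with phenobarbital, against 7.66 to 10.2 and 7.54 to 9.68 in the 2 knockout groups. No macrophage marker was called with phenobarbital in either genotype, though in wild type all 10 changes were below 0 (median -0.392). In knockout against wild type, 9 of 10 rose on control diet and 8 of 10 on phenobarbital. In these 2 comparisons 5 of 8 and 3 of 8 stellate cell markers rose, 5 of 6 and 4 of 6 endothelial, 3 of 5 and 1 of 5 lymphocyte, 2 of 4 and 1 of 4 neutrophil, and 2 of 3 and 1 of 3 cholangiocyte markers. Knockout control arrays 2, 6 and 7 had the lowest estimated array weights, so control-diet genotype calls were also tested without them. Of the 10 calls, Asl, Glud1, Uroc1, Prodh, Bhmt and Cth held in that run and Nags, Slc25a13, Slc38a4 and Asns did not, while Hal and Gldc passed. These arrays also had the lowest knockout control means over the 35 genes (11.274, 11.221 and 10.953). Leaving them out raises the knockout side, which favours rises over falls. Here and for each gene below, that run is therefore a description and no check of the calls. In whole liver, fewer hepatocytes and less RNA per hepatocyte cannot be told apart.

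**Figure D1:**
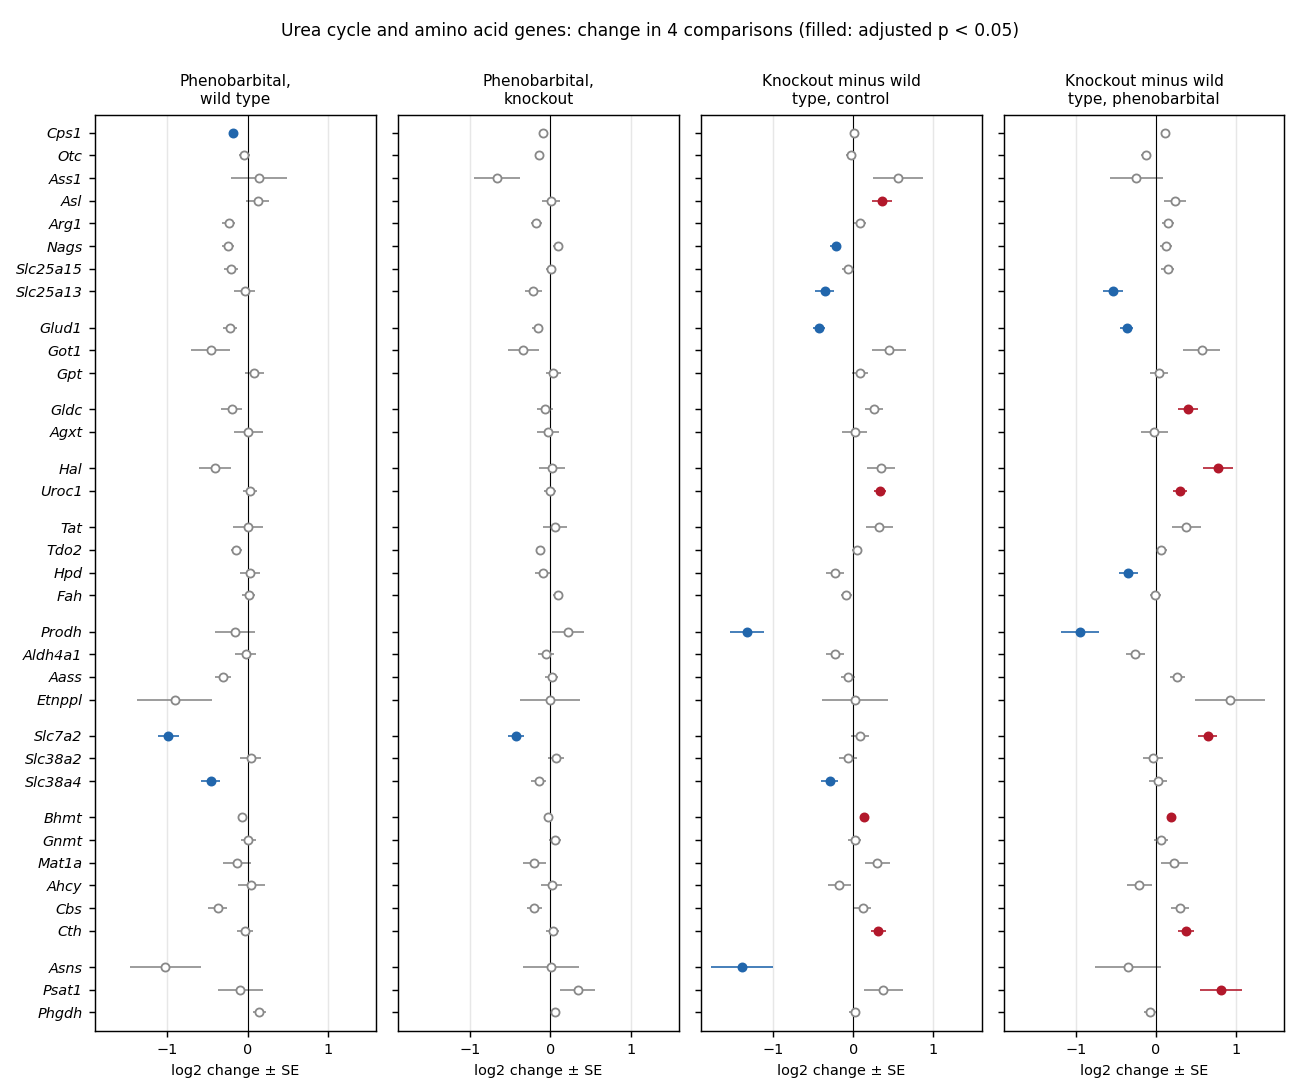
Log2 change ± SE of the 35 measured genes (rows, grouped by role) in 4 comparisons (columns), filled blue where the gene fell and filled red where it rose at an adjusted p under 0.05. Phenobarbital columns hold 3 and 1 filled points, all below 0, and the genotype columns hold 10 and 11 in both directions.

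Across the comparisons, 16 of the 35 genes were called at least once and 19 in none, by the probe set that stands for each gene. The share of all genes called at least once is not given here, so this count is a description only. Of all genes tested, 25% were called between genotypes on control diet and 20% on phenobarbital. Of the 16, 15 were called between genotypes and 3 with phenobarbital in wild type. The exception among the 16 is Cps1, called only with phenobarbital in wild type.

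Promoter sequence is shown for 3 genes that were called between genotypes and whose start region holds a motif of the Wnt or the amino acid shortage pathway. RefSeq windows (GRCm38.p6, 250 bases before to 50 after the start) were given for 28 of the 37 genes, 33 windows in all. The letters CTTTGAT, the core bound by TCF factors that partner β-catenin, were searched on both strands and occur in 3.73% of all 32851 windows and in those of Nags and Hal among the 28 genes. The letters TGATGNAA, the amino acid response element, occur in 3.97% of all windows and in those of Asns and Got1, and TGACGTCA, the cyclic AMP response element, in 1.79% and in none of the 28. The motif searched is in capitals in each 250-base stretch before the start site, 204, 199 and 23 bases before it respectively, shown on the gene's strand, and ATCAAAG is CTTTGAT on the opposite strand.
Nags, chr11:102145263-102145512 (+): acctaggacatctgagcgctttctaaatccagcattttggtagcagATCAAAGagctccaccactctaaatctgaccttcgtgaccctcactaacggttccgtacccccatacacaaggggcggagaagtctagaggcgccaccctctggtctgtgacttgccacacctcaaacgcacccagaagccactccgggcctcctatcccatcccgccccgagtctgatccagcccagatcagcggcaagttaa
Hal, chr10:93488518-93488767 (+): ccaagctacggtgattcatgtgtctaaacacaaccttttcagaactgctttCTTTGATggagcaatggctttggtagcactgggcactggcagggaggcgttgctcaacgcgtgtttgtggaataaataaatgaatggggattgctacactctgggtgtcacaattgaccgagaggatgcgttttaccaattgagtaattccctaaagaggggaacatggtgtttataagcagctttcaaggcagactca
Asns, chr6:7693210-7693459 (-): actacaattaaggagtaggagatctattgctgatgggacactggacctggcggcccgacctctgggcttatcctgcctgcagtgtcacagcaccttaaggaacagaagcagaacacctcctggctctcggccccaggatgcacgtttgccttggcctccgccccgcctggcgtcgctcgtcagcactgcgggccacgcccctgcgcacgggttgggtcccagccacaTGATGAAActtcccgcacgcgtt
A match says only that these letters are present.

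In wild-type liver, phenobarbital lowered 3 of the 35 genes (8.57%) and raised none, against 3.85% of all genes called (1.95% higher, 1.9% lower). At an unadjusted p under 0.05 there were 10 of 35. The share of all genes at that unadjusted p is not given here, so this count is a description only. The 3 called were the cationic amino acid transporter Slc7a2, the neutral amino acid transporter Slc38a4 and the urea cycle enzyme Cps1. The median change over the 35 genes was -0.0911, against 0.00787 over all genes tested, and 23 of the 35 changes were below 0.

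Slc7a2, which carries arginine, lysine and ornithine into the cell, stood at 11.48, 11.44, 11.89, 12.05 and 11.49 in the 5 wild-type control arrays. With phenobarbital it stood at 10.50, 10.56, 10.64 and 11.04. Every phenobarbital array lay below every control array. The log2 change was -0.99 (SE 0.128, a fold of 0.505, limma adjusted p 3.74e-05), and 3 of its 4 probe sets fell. The call held under all 36 alternatives run, among them the 23 that each leave out 1 array.

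Slc38a4, a sodium-coupled carrier of small neutral amino acids, stood at 12.51, 12.57, 12.76, 12.63 and 12.43 in wild-type control and at 12.00, 12.14, 12.10 and 12.23 with phenobarbital. The groups did not overlap. It fell by 0.46 (SE 0.12, a fold of 0.726, limma adjusted p 0.029), with 1 of its 2 probe sets called. Its adjusted p rose to between 0.0522 and 0.106 without any 1 of wild-type control arrays 2, 3 and 4 or wild-type phenobarbital arrays 1, 2 and 3, and to 0.0544 with the mean of its probe sets. The third carrier, Slc38a2, had a change of 0.04 (adjusted p 0.952).

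Cps1, the mitochondrial enzyme that commits ammonia to the urea cycle, stood at 13.80, 13.82, 13.89, 13.83 and 13.80 in wild-type control and at 13.64, 13.65, 13.62 and 13.65 with phenobarbital. All 4 phenobarbital arrays lay below all 5 control arrays, with a narrow spread in both groups. The log2 change was -0.19 (SE 0.0463, a fold of 0.877, limma adjusted p 0.0204). Without wild-type control array 3, or without wild-type phenobarbital array 1 or 3, the adjusted p was between 0.0573 and 0.0704.

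A further 6 genes were lower in every phenobarbital array than in every wild-type control array without passing the test, which makes 9 of 35 with arrays that did not overlap, all lower, beside 11.6% of all genes (6.04% higher, 5.56% lower). In the urea cycle group these were Arg1, which splits arginine into urea and ornithine, at -0.24 (adjusted p 0.12), and Nags, whose product switches Cps1 on, at -0.24 (0.0867). Outside it they were glutamate dehydrogenase Glud1 at -0.22 (0.237) and histidine ammonia-lyase Hal at -0.41 (0.332). Aass, the first enzyme of lysine breakdown, had -0.31 (0.0963), and Etnppl, which breaks down phosphoethanolamine, had -0.91 (0.369). Etnppl, Slc7a2 and Asns were the only 3 of the 35 genes whose 95% interval reached past 1 log2 unit. Of the remaining urea cycle enzymes, Otc changed by -0.04 (0.864), Ass1 by 0.14 (0.923) and Asl by 0.13 (0.779), none passing the test.

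In knockout liver the drug lowered 1 of the 35 genes (2.86%), against 2.05% of all genes called (1.17% higher, 0.882% lower), and raised none. That gene was again Slc7a2, at 11.65 (lowest), 11.71 (median) and 11.95 (highest) in 7 knockout control arrays and 11.05, 11.35 and 11.54 in 7 on phenobarbital. The 2 groups did not overlap, as for 0.976% of all genes (0.636% higher, 0.34% lower). It fell by 0.43 (SE 0.102, a fold of 0.743, limma adjusted p 0.0279), and the call was lost without any 1 of knockout control arrays 5 and 6 or knockout phenobarbital arrays 2, 3 and 5 (adjusted p 0.0513 to 0.0632), and with the mean of its 4 probe sets (0.165).

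None of the other 34 was called with phenobarbital in the knockout. Cps1 changed by -0.09 (0.228), Otc by -0.14 (0.221), Ass1 by -0.67 (0.263), Asl by 0.00 (0.992) and Arg1 by -0.17 (0.188). With knockout control arrays 2, 6 and 7 left out, 8 of the 35 passed in this comparison: Slc7a2 and Cps1, Otc, Ass1, Arg1, Slc25a13, Glud1 and Slc38a4, all lower with phenobarbital. Over all genes, 786 of 13826 passed in that run. The 3 arrays left out had the lowest knockout control means over the 35 genes, at 11.274, 11.221 and 10.953. The other knockout control arrays stood at 11.397 to 11.474. Leaving the 3 out raises the control side, so this run is a description only. Without knockout control array 7 alone, Glud1 joined Slc7a2 (log2 change -0.24, adjusted p 0.00452). Over the 35 genes the changes in the 2 genotypes, which share no arrays, had the same sign in 23 cases (8 higher, 15 lower). Over all genes tested, 59.3% had the same sign. The changes of the 35 correlated at Pearson r 0.184 and Spearman rho 0.272, against r 0.447 and rho 0.267 over all genes tested.

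The difference between the phenobarbital effects in knockout and wild type was called for 0 of the 35 genes, against 0.875% of all genes (0.354% higher, 0.521% lower), by limma with Benjamini-Hochberg adjustment. At an unadjusted p under 0.05 there were 3 of 35, again without the share of all genes beside it. Slc7a2 had a difference of 0.56 (adjusted p 0.14), Asns 1.03 (0.583), Etnppl 0.90 (0.698), Ass1 -0.81 (0.593) and Nags 0.34 (0.131). A p that misses the threshold does not show that the effects were alike.

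**Figure D2:**
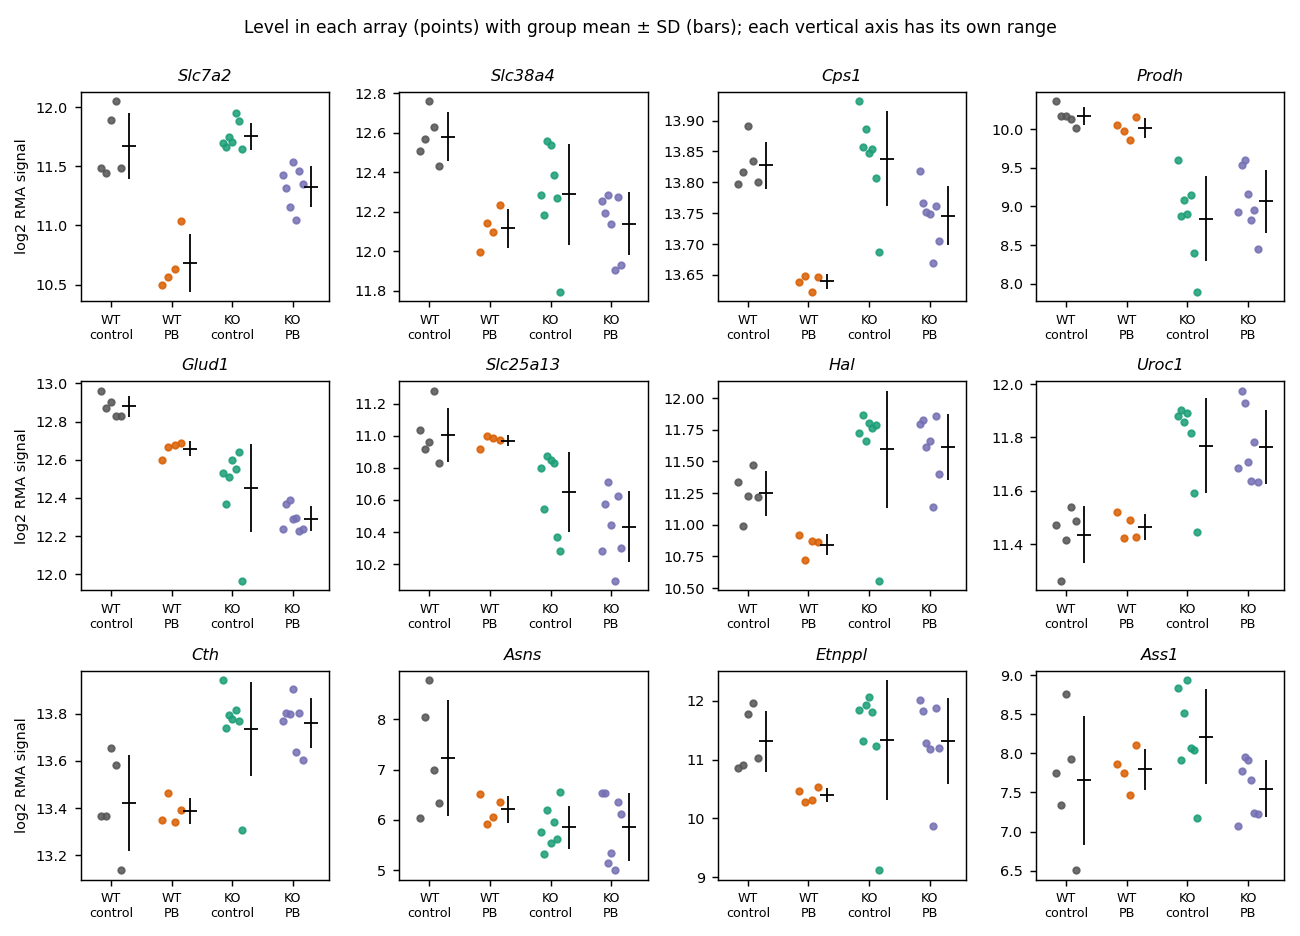
Log2 RMA level of 12 of the genes in each array (points) of the 4 groups, with group mean ± SD (bars), each panel on its own axis. Slc7a2 shows the wild-type phenobarbital arrays below all others, and Prodh and Glud1 show both knockout groups below wild type on the same diet.

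In the knockout on control diet, 6 of the 35 genes were lower than in wild type and 4 higher (28.6% called), against 25% of all genes (14.8% higher, 10.1% lower). The genes lower in the knockout were Prodh, Asns, Glud1, Slc25a13, Slc38a4 and Nags. Those higher were Asl, Uroc1, Cth and Bhmt. On phenobarbital diet 4 were lower and 7 higher (31.4%), against 20% of all genes (11.9% higher, 8.12% lower). These were Prodh, Slc25a13, Glud1 and Hpd, and, higher, Psat1, Hal, Slc7a2, Gldc, Cth, Uroc1 and Bhmt. Psat1 passed the filter on low signal only through knockout arrays, and without it 6 of 34 were higher and 4 lower (29.4%). Prodh, Glud1, Slc25a13, Bhmt, Cth and Uroc1 were called in both diets, in the same direction each time. The median change of the 35 was 0.0196 on control diet and 0.106 on phenobarbital, against -0.00473 and 0.00237 over all genes. Arrays did not overlap for 3 of the 35 on control diet, all lower in the knockout, against 10.6% of all genes (6.98% higher, 3.65% lower), and for 13 on phenobarbital (9 higher, 4 lower), against 18.6% (11.2% higher, 7.38% lower).

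Among the urea cycle genes, Asl, which splits argininosuccinate into arginine and fumarate, was higher in knockout on control diet. It stood at 11.07, 10.96, 11.14, 11.27 and 10.97 in the 5 wild-type arrays and at 11.04 (lowest), 11.35 (median) and 11.99 (highest) in the knockout. The ranges overlapped. It rose by 0.36 (SE 0.126, a fold of 1.28, limma adjusted p 0.043), and leaving out any 1 of 10 arrays (wild-type control 1, 2, 3 or 5, knockout control 1, 3, 5 or 6, wild-type phenobarbital 1 or 3) gave an adjusted p of 0.05 to 0.0962. The call was also lost with only the compared groups fitted. On phenobarbital the change was 0.23 (0.227).

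Nags fell by 0.22 (SE 0.067, a fold of 0.86, limma adjusted p 0.0222) on control diet, with no overlap between the groups. Without wild-type control array 1 or 3 its adjusted p was 0.0552 to 0.0705, without knockout control arrays 2, 6 and 7 it was 0.216, and with the macrophage marker mean of each array as a covariate it was 0.513. Array weights and a replicate-number block also lost the call. On phenobarbital the change was 0.12 (0.227).

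Slc25a13, the mitochondrial carrier that exports aspartate for the cycle, fell in both diets. On control diet it stood at 11.04, 10.92, 10.96, 11.28 and 10.83 in wild type and at 10.28, 10.80 and 10.87 (lowest, median and highest) in the knockout, and these ranges overlapped. On phenobarbital it stood at 10.92, 11.00, 10.99 and 10.97 against 10.10, 10.45 and 10.71, with none. The changes were -0.36 (SE 0.114, limma adjusted p 0.0268) and -0.53 (SE 0.122, limma adjusted p 0.00401). The control-diet call was lost without any 1 of knockout control arrays 2, 6 and 7 or wild-type control arrays 1 and 4 (0.0507 to 0.0866), and without the 3 knockout arrays together the change was -0.17 (0.332). Array weights, a replicate-number block and fitting only the compared groups also lost the control-diet call. With the macrophage covariate the changes were -0.06 (0.824) and -0.20 (0.31).

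The other urea cycle genes were not called between genotypes. On control diet and on phenobarbital, Cps1 had 0.01 (0.873) and 0.11 (0.0861), Otc had -0.03 (0.731) and -0.13 (0.163), Ass1 had 0.56 (0.186) and -0.25 (0.627), and Arg1 had 0.09 (0.395) and 0.15 (0.17). Ass1 rests on 1 probe set with a wide spread, from 6.51 to 8.76 in wild-type control arrays (SD 0.824, n = 5). In knockout control arrays it ran from 7.17 to 8.94 (SD 0.61, n = 7), so its changes are imprecise. Cps1 arrays did not overlap on phenobarbital, higher in the knockout. Slc25a15, the ornithine carrier, had -0.07 (0.503) and 0.14 (0.189). With the macrophage covariate Arg1 passed, higher in the knockout, at 0.28 (0.00902) and 0.37 (0.00163).

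Of the 3 genes that move glutamate and alanine nitrogen, Glud1, which releases ammonia from glutamate, fell in both diets. On control diet it stood at 12.96, 12.87, 12.90, 12.83 and 12.83 in wild type and at 11.97, 12.53 and 12.64 (lowest, median and highest) in the knockout. Every knockout array lay below every wild-type array. The changes were -0.43 (SE 0.0806, a fold of 0.744, limma adjusted p 0.000718) and, on phenobarbital, -0.37 (SE 0.0863, a fold of 0.775, limma adjusted p 0.00486), and both of its probe sets fell in each. The macrophage covariate left -0.35 (0.0393) on control diet and -0.28 (0.115) on phenobarbital. The aminotransferases Got1 and Gpt were not called, at 0.45 (0.128) and 0.08 (0.579) on control diet.

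Prodh, the first enzyme of proline breakdown, had the largest fall of a called gene on phenobarbital and one of the 2 largest on control diet. Wild-type control arrays stood at 10.36, 10.17, 10.17, 10.13 and 10.02, and knockout control arrays at 7.90 (lowest), 8.91 (median) and 9.60 (highest). On phenobarbital the wild-type arrays stood at 10.05, 9.97, 9.86 and 10.16 and the knockout arrays at 8.45, 8.95 and 9.60. The genotypes did not overlap in either diet, and the knockout arrays spread more widely (SD 0.552 and 0.404, against 0.122 and 0.126). The changes were -1.32 (SE 0.216, a fold of 0.399, limma adjusted p 0.000173) and -0.95 (SE 0.232, a fold of 0.518, limma adjusted p 0.00652). Without knockout control arrays 2, 6 and 7 the control-diet change was -0.98 (0.00119). With the macrophage covariate it was -0.95 (0.0209), and the phenobarbital-diet change was -0.53 (0.237). Aldh4a1, the next enzyme of the route, had -0.23 (0.145) and -0.26 (0.135).

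Of the other genes of that group, Aass had -0.06 (0.621) and 0.27 (0.05), with non-overlapping arrays on phenobarbital. Aass passed on phenobarbital in 7 of the 23 runs that leave out 1 array (without knockout control 1, 3, 6 or 7 or knockout phenobarbital 1, 5 or 7, adjusted p 0.0289 to 0.049). Etnppl had 0.02 (0.978) and 0.92 (0.141), and its SD in the 7 knockout control arrays was 1.02, the largest of the 35 genes there. Without knockout control array 7 its phenobarbital-diet difference was 0.92 (0.0331). That array is in neither group compared there, so only the shared estimate of the spread changed. The Etnppl probe sets disagreed: the other had -0.80 (0.335) on control diet and 0.04 (0.973) on phenobarbital.

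The histidine route begins with Hal, which removes ammonia from histidine, and continues with urocanase, Uroc1. Uroc1 rose in both diets. On control diet it stood at 11.47, 11.26, 11.41, 11.54 and 11.49 in wild type and at 11.45 (lowest), 11.86 (median) and 11.90 (highest) in the knockout, with an overlap of 1 knockout array. The changes were 0.33 (SE 0.0801, a fold of 1.26, limma adjusted p 0.00499) and 0.30 (SE 0.0857, a fold of 1.23, limma adjusted p 0.0175). The phenobarbital-diet call was lost without wild-type phenobarbital array 4 (0.0531) and with the mean of its probe sets (0.052).

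Hal was higher in the knockout on phenobarbital. Wild-type phenobarbital arrays stood at 10.92, 10.72, 10.87 and 10.86 and knockout arrays at 11.14, 11.66 and 11.86 (lowest, median and highest). No array overlapped. It rose by 0.77 (SE 0.185, a fold of 1.71, limma adjusted p 0.00576), a call kept under all 36 alternatives. On control diet its change was 0.35 (0.145), and without knockout control array 7, which lay at 10.56 against 11.66 for the next, it was 0.52 (0.00155). Without knockout control arrays 2, 6 and 7 it was 0.49 (0.0114).

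In the serine, glycine and glyoxylate group, Gldc, the glycine cleavage decarboxylase, stood at 10.60, 10.56, 10.48 and 10.63 in wild-type phenobarbital and at 10.75, 10.96 and 11.20 in knockout phenobarbital arrays, with no overlap. It rose by 0.40 (SE 0.12, a fold of 1.32, limma adjusted p 0.0233). Without wild-type phenobarbital array 2 or 3 the adjusted p was 0.0513 to 0.0755. On control diet it was 0.26 (0.0877), and without knockout control array 7 it was 0.34 (0.0172). Without arrays 2, 6 and 7 of that group it was 0.47 (0.00138). Agxt, which detoxifies glyoxylate in peroxisomes, had 0.02 (0.939) and -0.02 (0.942).

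Of the tyrosine, phenylalanine and tryptophan genes, Hpd was called, on phenobarbital. Its control-diet change was -0.23 (0.129). Hpd makes homogentisate, and it stood at 13.67, 13.59, 13.69 and 13.65 in wild type and at 13.02, 13.37 and 13.51 in the knockout. The groups did not overlap. It fell by 0.35 (SE 0.115, a fold of 0.787, limma adjusted p 0.0386). It lost the call without any 1 of knockout phenobarbital arrays 1, 4, 5 and 7 or wild-type phenobarbital arrays 1, 2, 3 and 4 (0.0505 to 0.0953), at quantile normalization (0.055) and with the macrophage covariate (-0.08, 0.765). A replicate-number block also lost the Hpd call. Tat, the tyrosine aminotransferase, had 0.33 (0.15) and 0.38 (0.135), its arrays not overlapping on phenobarbital. Tdo2 and Fah had changes between -0.09 and 0.07 in both diets, none called.

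Slc7a2 had a genotype difference of 0.08 (adjusted p 0.607) on control diet, and on phenobarbital the knockout was higher by 0.64 (SE 0.12, a fold of 1.56, limma adjusted p 0.000736). Each of the 4 Slc7a2 probe sets was called on phenobarbital. On control diet the probe sets disagreed: 2 of the 4 rose, by 0.39 (0.0222) and 0.50 (0.015). Wild-type phenobarbital arrays stood between 10.50 and 11.04 and the 7 knockout arrays between 11.05 and 11.54, a narrow gap without overlap. Slc38a4 fell on control diet by 0.29 (SE 0.104, limma adjusted p 0.0452), with overlapping arrays, and had 0.02 (0.902) on phenobarbital. That call was lost in 14 of the 23 runs without 1 array (knockout control 1, 2, 6 or 7, knockout phenobarbital 2 or 4, wild-type control 1, 2, 3 or 4, or any wild-type phenobarbital array, adjusted p 0.0501 to 0.12), and it was at -0.14 (0.364) without knockout control arrays 2, 6 and 7 and at -0.03 (0.926) with the macrophage covariate. No filter, quantile normalization, the mean of probe sets, array weights, a replicate-number block and fitting only the compared groups each lost that Slc38a4 call. It held under 14 of the 36 alternatives. Slc38a2 had -0.07 (0.7) and -0.03 (0.87).

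Of the methionine cycle and transsulphuration genes, 2 of 6 rose in each diet, the same 2. Over all genes, 14.8% rose on control diet and 11.9% on phenobarbital. Cth, the enzyme that makes cysteine, rose by 0.31 (SE 0.0915, limma adjusted p 0.0166) and by 0.37 (SE 0.0979, limma adjusted p 0.0105). Its control-diet call was lost without wild-type control array 5 (0.0607) and with only the compared groups fitted. Bhmt, which remethylates homocysteine with betaine, rose by 0.14 (SE 0.0455, limma adjusted p 0.029) and 0.18 (SE 0.0487, limma adjusted p 0.0119). Its calls were lost without knockout control array 1 or wild-type control array 1 or 5 (0.0548 to 0.0941), without wild-type phenobarbital array 1 (0.0639), and with the macrophage covariate (0.146 and 0.062). The control-diet call of Bhmt was also lost with a replicate-number block and with only the compared groups fitted. Gnmt, Mat1a, Ahcy and Cbs were not called in either diet. Cbs passed on phenobarbital without knockout control array 7 or knockout phenobarbital array 5 (0.0206 to 0.0484).

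The last group makes serine and asparagine. Asns, which makes asparagine and is a target of the amino acid shortage response, stood at 6.03, 8.04, 8.78, 6.99 and 6.33 in wild-type control arrays and at 5.33, 5.77 and 6.56 (lowest, median and highest) in the knockout. The wild-type arrays spread over more than 2 log2 units and the groups overlapped. It fell by 1.38 (SE 0.386, a fold of 0.383, limma adjusted p 0.0129), a call kept in all 23 runs without 1 array, at 0.0553 without knockout control arrays 2, 6 and 7, and at -0.90 (0.292) with the macrophage covariate. In wild-type liver on phenobarbital it stood at 6.52, 5.93, 6.05 and 6.35, a change from control of -1.02 (0.255). Phgdh, the first enzyme of serine synthesis, had 0.02 (0.873) and -0.07 (0.496) by the probe set that stands for it, and its probe sets disagreed. Of the 4, 2 rose on control diet, by 0.46 (0.00514) and 0.40 (0.0118), and 1 on phenobarbital, by 0.45 (0.0101). With the mean of its probe sets the control-diet change was 0.22 (0.00967).

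Psat1, which makes phosphoserine, was below the array's 40th percentile of signal in all 9 wild-type arrays, in 6 of 7 knockout control arrays and in 3 of 7 knockout phenobarbital arrays, so it passed the filter only through knockout arrays. It stood at 3.46, 3.82, 3.59 and 3.62 in wild-type phenobarbital arrays and at 3.68, 4.71 and 5.25 in the knockout. The ranges overlapped. The log2 difference of 0.81 (SE 0.259, limma adjusted p 0.0319) is therefore set against near-background levels. Its call was lost without any 1 of knockout phenobarbital arrays 1, 2, 6 and 7 or wild-type phenobarbital arrays 1, 3 and 4 (0.0514 to 0.0892) and with the macrophage covariate (0.0926). A replicate-number block and fitting only the compared groups also lost it.

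**Figure D3:**
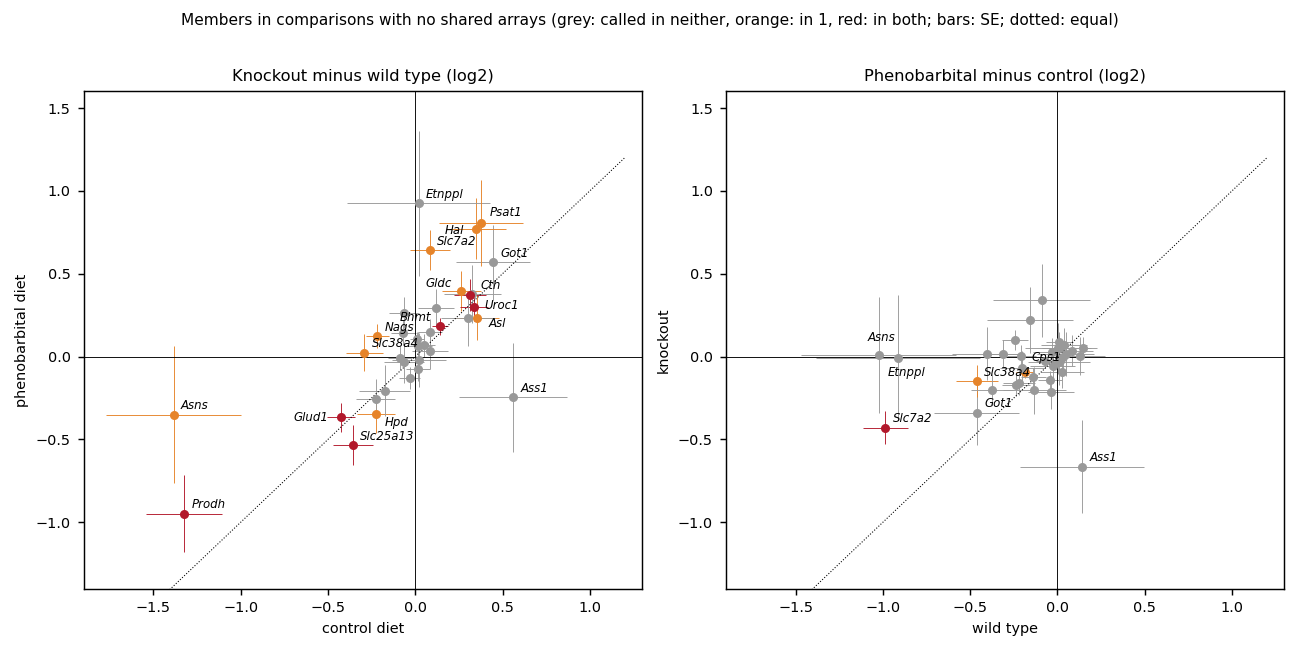
Changes of the 35 genes in pairs of comparisons that share no arrays, with SE bars, the left panel showing the knockout minus wild-type difference in each diet and the right panel the phenobarbital effect in each genotype (orange, called in 1 comparison, red, in both). In the left panel Prodh, Glud1, Slc25a13, Cth, Uroc1 and Bhmt are called in both diets, and in the right panel only Slc7a2 is.

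The genotype differences in the 2 diets, which come from separate arrays, had the same sign for 28 of the 35 genes (18 higher in both, 10 lower in both). Over all genes tested, 75.9% had the same sign. They correlated across genes at Pearson r 0.687 and Spearman rho 0.728, against 0.831 and 0.716 over all 13826 genes. Genes are not independent replicates, so this is a description.

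**Figure D4:**
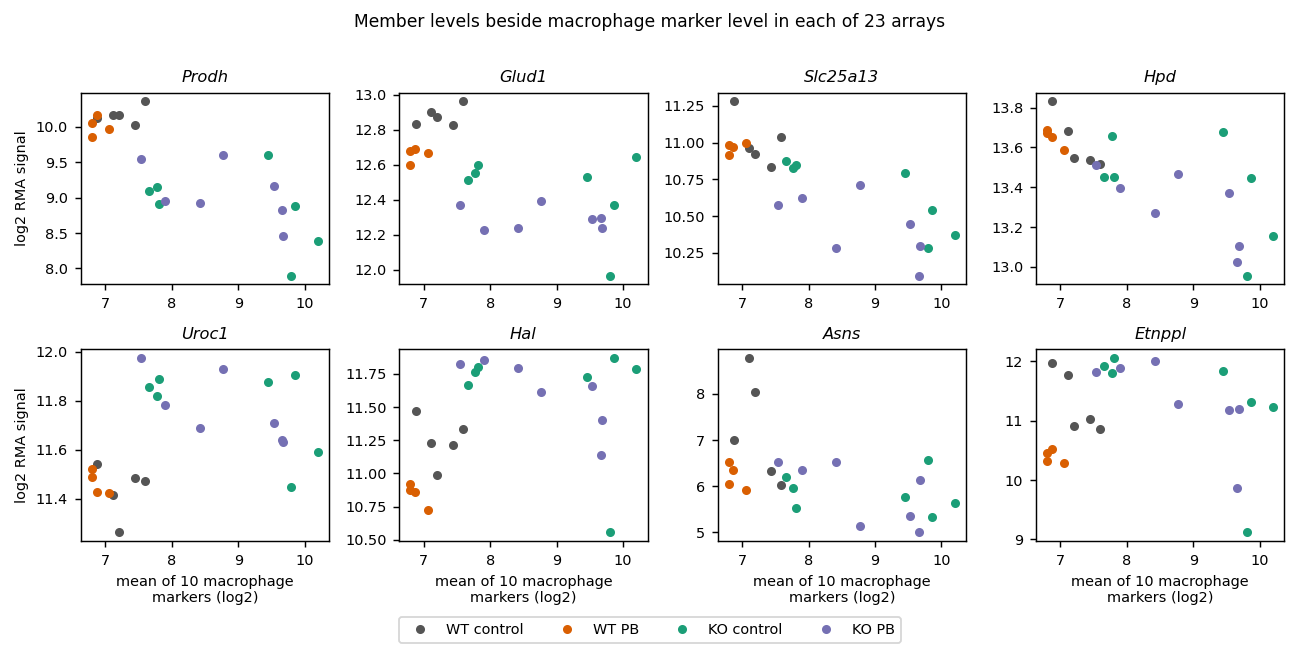
Log2 RMA level of 8 of the genes (vertical axes) beside the mean log2 level of 10 macrophage markers (horizontal axes) in each of the 23 arrays, coloured by group. The lowest Hpd and Slc25a13 values lie in knockout arrays toward the right, and Uroc1 is above the highest wild-type array in 13 of 14 knockout arrays, at low and high marker means alike.

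Genotype and macrophage marker level move together across these arrays, and the part of either in the genotype results was not tested beyond the covariate fits given above. With that covariate, 8 of the 35 were called on control diet and 8 on phenobarbital, but not the same genes as without it. On control diet Nags, Slc25a13, Slc38a4, Bhmt and Asns lost the call, and Arg1, Gldc and Cbs gained it. On phenobarbital Slc25a13, Glud1, Prodh, Hpd, Bhmt and Psat1 lost it, and Arg1, Cbs and Etnppl gained it. Over all 13826 genes, 1015 and 1528 were called with the covariate, against 3453 and 2772 without.

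Other genes of the same pathways, listed by function, were counted for comparison. Of 68 tested, phenobarbital lowered 6 and raised none in wild type, and lowered 1 and raised 1 in the knockout. These are 8.82% and 2.94%, against 3.85% and 2.05% of all genes. In the knockout against wild type, 8 rose and 15 fell on control diet, and 9 rose and 13 fell on phenobarbital. The share called was 33.8% and 32.4%, against 25% and 20% of all genes. The perivenous enzymes lay at the extremes. Oat, which makes glutamate semialdehyde from ornithine, changed by -4.22 in both diets (adjusted p 3.5e-12 and 1.06e-11), and the glutamate transporter Slc1a2 by -2.45 and -1.28. Among genes that rose, Gatm, of creatine synthesis, had 1.10 and 1.12. Aldh18a1, of proline synthesis, also rose in both diets, but its probe set was below the array's 40th percentile in all 9 wild-type arrays and in 3 of 7 arrays of each knockout group, so it passed the filter only through the knockout and its fitted difference is no measure of size. The ammonia transporter Rhbg fell by 1.37 on control diet. In wild type, phenobarbital lowered Slc43a1, a large neutral amino acid carrier, by 0.63 (adjusted p 0.00451), Csad, of taurine synthesis, by 1.58 (0.0194), and the mitochondrial glutamate carrier Slc25a22 by 0.41 (0.0193). In the knockout it lowered Oat by 0.77 (0.0397) and raised Slc3a2, the partner of several amino acid carriers, by 0.40 (0.0227).

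Of 9 tested genes from a list of the amino acid shortage factor Atf4 and its targets, and 14 circadian clock genes, none was called by limma in any of the 5 comparisons. At an unadjusted p under 0.05 there were 4 and 5 such gene and comparison pairs. Of the 9, the change with phenobarbital was above 0 for 8 in wild type and 7 in the knockout. Between genotypes it was above 0 for 3 on control diet and 6 on phenobarbital. Of 13 genes of fasting, glucagon and glucocorticoid signalling, phenobarbital lowered Pck1 by 0.87 (0.0146) and Foxo1 by 0.30 (0.0413) in wild type. None of the 13 was called by limma in the other comparisons, where 1 to 3 had an unadjusted p under 0.05. All 9 perivenous reference genes fell in the knockout in both diets, and 3 of 6 periportal reference genes rose on control diet and 4 of 6 on phenobarbital.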

How the data were processed

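The arrays were summarised by the authors with RMA in the affy package, per the submitters' processing notes (no versions given), which gives log2 signals for each probe set and array as deposited. Of 45037 probe sets, 34945 name 1 gene, 932 several and 9160 none in the platform annotation, and 34741 symbols were updated by Entrez identifier. Each gene was represented by its single-gene probe set with the highest mean. Genes above the 40th percentile of the array's probe sets in at least 4 arrays were kept (13826). Limma 3.58.1 in R 4.3.3 fitted 1 mean per group over all 23 arrays, with 5 two-sided comparisons and Benjamini-Hochberg adjustment over all genes tested. The fit was tested on simulated data. No pair of arrays held identical values, and within-group correlations were at least 0.945. The number of arrays limits the precision.

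The genes and lists were chosen with earlier results of these data known. Called genes are named with change, SE and adjusted p, the 6 largest per comparison also by array, and genes not called singly where arrays do not overlap or where they are urea cycle enzymes. The genes of other lists are named up to 4 per comparison by size. Gene names and promoter sequences are RefSeq's (GRCm38.p6). Alternatives covered the filter, normalization, probe set choice, variance model, array weights, replicate block, arrays fitted and arrays left out.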

Additional observations from a re-analysis of the deposited data

Results flagged for a closer look

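Of 140 groups of arrays checked over the 35 genes, 8 (5.71%) held an array whose gap to its neighbour exceeded Dixon's 95% critical value, where chance gives about 1 in 20. Of these, 6 of 35 (17.1%) were in knockout control, 1 of 35 (2.86%) in wild-type control and in knockout phenobarbital each, and 0 in wild-type phenobarbital. In knockout control, array 7 was the lowest for Glud1 (11.97, the next 12.37), Agxt (11.66, the next 12.23), Hal (10.56, the next 11.66), Etnppl (9.12, the next 11.22) and Cth (13.3, the next 13.74), and the highest for Psat1 (5.01, the next 4.26). Array 7 also had the lowest estimated array weight of all 23, at 0.21. Etnppl was lowest in knockout phenobarbital array 5 (9.86, the next 11.19), and Aass in wild-type control array 2 (11.58, the next 11.74).

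The phenobarbital effect differed between genotypes for the glutamate transporter Slc1a2, by 1.16 on the log2 scale (limma adjusted p 0.0347). Its mean was 7.211 and 6.059 in wild type on control and phenobarbital diet, and 4.763 and 4.776 in the knockout. The knockout means lay near the filter's floor (mean 4.56), and whether a further fall could register there was not tested. It also differed for the treatment check Cyp2b10, by -3.95 (limma adjusted p 4e-05).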

How the results depend on the processing

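No call of the 175 gene and comparison pairs turned its sign under any of the 36 alternatives in which it was fitted, and 7 of the 25 calls held under all of them: Slc7a2 with phenobarbital in wild type, Glud1, Uroc1 and Prodh between genotypes on control diet, and Hal, Slc7a2 and Cth on phenobarbital. Counts of the 35 genes called, in the order phenobarbital in wild type, phenobarbital in knockout, genotype on control diet, genotype on phenobarbital and their difference, were 3, 1, 10, 11 and 0. Array weights gave 10, 4, 10, 19 and 0. Fitting only the compared groups gave 7, 1, 5 and 12. Leaving out knockout control arrays 2, 6 and 7 gave 4, 8, 8, 15 and 0. The macrophage covariate, chosen after seeing the data, gave 8, 2, 8, 8 and 1 (Nags, adjusted p 0.0388). The mean of probe sets gave 0 for phenobarbital in knockout. A filter over representative probe sets, also chosen after seeing the data, left these counts the same but not the genes: on phenobarbital diet Aass gained the genotype call (0.0448) and Psat1 was filtered out, and the 60th percentile filter did the same (Aass 0.0428). Runs without 1 array gave 1 to 5, 0 to 2, 5 to 10, 8 to 15 and 0 to 0. Over all genes, the same runs gave 315 to 664, 157 to 408, 2667 to 3903, 1798 to 3287 and 63 to 146. The lowest counts for phenobarbital in wild type (1) came without wild-type control array 3 or wild-type phenobarbital array 1 or 3, the highest (5) without knockout control array 7, and the 5 for genotype on control diet without wild-type control array 1.

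For the 68 other genes the main counts were 6, 2, 23, 22 and 1. Array weights gave 13 for phenobarbital in wild type, 14 for genotype on control diet and 2 for the difference. Fitting only the compared groups gave 14, 0 and 14 in the first 3, and the 3 arrays left out gave 8 for phenobarbital in knockout, 12 for genotype on control diet and 0 for the difference. The macrophage covariate gave 4 and 14 for phenobarbital in knockout and genotype on control diet. Runs without 1 array gave 2 to 7, 1 to 3, 17 to 24, 13 to 23 and 0 to 1. The cause was not tested for any of these shifts.

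Replicate numbers are shared between groups, and the labels do not say that they pair the samples. Deviations of same-numbered arrays correlated between -0.7 and 0.63. Differently numbered arrays were not compared, so these values cannot tell whether the numbers pair the samples. The replicate block gave 4, 1, 8, 13 and 0 calls among the 35 genes, and 1, 15 and 0 of the other genes for phenobarbital in knockout, genotype on control diet and the difference. Over all genes, the counts were 532, 284, 3453, 2772 and 121. Array weights gave 1503 and 461 with phenobarbital, 4574 for genotype on phenobarbital and 323 for the difference, and only the compared groups gave 929, 100 and 2078 in the first 3. The replicate block gave 1967 and 1606 between genotypes. The 3 arrays left out gave 810, 786 and 1535 in the first 3 and 273 for the difference, and the covariate gave 1006, 610, 1015, 1528 and 280. The number of arrays limits what can be called: 29 to 34 of the 35 genes had a 95% interval within 1 log2 unit of 0.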
